A study of Mus musculus with 8 samples.

Results

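The genes of T-cell receptor (TCR) signaling were described in RNA-seq of Th17 cells, the IL-17-producing type of helper T cell, with and without *Trim28*. Their list of 46 gene symbols runs from the CD3 chains of the receptor to the calcium, Ras and NF-κB branches and the enzymes that limit them. Its members were picked by name and not by a limit on measured values, but with earlier results of these data known. Of the 46 genes, 43 had reads in at least 1 of the libraries, out of 13704 genes with reads, and 42 had the 10 reads over both libraries that were required for a test, out of 10881. *Vav1*, *Tec* and *Ikbkg* were listed in neither library. *Pag1* had only 3 reads in WT and 1 in KO and was not tested.

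Naive CD4+ T cells of C57BL/6 mice were stimulated with plate-bound anti-CD3 and anti-CD28 under Th17 conditions (TGF-β at 0.5 ng/ml, IL-6 at 20 ng/ml) for 3 days. They were then re-stimulated with anti-CD3, an antibody to the receptor complex itself. The WT library came from wild type mice. The KO library came from TRIM28fl/flxCD4cre mice, in which Cre recombinase under the *Cd4* promoter removes floxed *Trim28*, so deletion is limited to cells that have used that promoter. Whether the wild type mice carried the floxed allele or Cre, and how many mice went into a library, is not given in the sources used here. There was 1 library per genotype, so no difference below has a replicate check.

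When a peptide bound to MHC engages the TCR, the kinase LCK, held at the coreceptor CD4, phosphorylates the CD3 and ζ chains, and ZAP70 docks there and phosphorylates the adaptors LAT and SLP-76. These gather phospholipase Cγ1, whose products open the calcium path to calcineurin and recruit RasGRP1 and protein kinase C θ. RasGRP1 starts the Ras and ERK cascade, and protein kinase C θ starts assembly of a complex holding BCL10 and MALT1 that leads to NF-κB. In Th17 cells the strength of this signal is known to bear on the cytokines they make.

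The WT library held 6.65 M reads and the KO library 6.19 M, of which 73046 and 63963 fell on the 46 genes. *Trim28* had 4485 reads in WT and 180 in KO, a log2 fold change of KO over WT, called the log2 ratio from here on, of -4.53. Of the markers of a CD4+ T cell, *Cd3e*, *Cd3d*, *Cd3g*, *Cd4* and *Cd28* were abundant, whereas *Cd8a* had 1 read in WT and 2 in KO. The TCR constant-region genes *Trac*, *Trbc1* and *Trbc2* were listed in neither library. They have 0 curated RefSeq transcripts, and whether the counting covered them is not given in the sources used here. Their lack of reads thus does not show absence of their RNA. Among markers of other cells, *Cd79b* was called lower (15 and 2 reads) and *Nkg7* higher (0 and 42 reads). Summed over each list, the levels in WT and KO were 12.5 and 7.76 CPM (counts scaled to the library total) for 8 B cell genes, 3.91 and 3.07 for 8 myeloid genes, 9.77 and 19.1 for 8 NK cell genes, 7.97 and 4.69 for 4 CD8 T cell genes and 0.752 and 0.323 for 5 γδ T cell genes. *Ighm* and *Cd22* among the B cell genes, *Lyz2*, *Csf1r*, *Adgre1* and *Tyrobp* among the myeloid genes, *Ncr1*, *Klrb1c*, *Klra4* and *Eomes* among the NK cell genes, *Gzmk* and *Crtam* among the CD8 genes and *Trdc*, *Trdv4* and *Tcrg-C1* among the γδ genes had no reads. Like *Trac*, the genes *Ighm*, *Trdc*, *Trdv4* and *Tcrg-C1* have 0 curated RefSeq transcripts, so their lack of reads cannot show absence of B or γδ T cells. *Cd22*, *Adgre1*, *Ncr1*, *Klrb1c*, *Klra4*, *Eomes* and *Crtam* have 2 or more curated RefSeq transcripts, as do the members without reads. Whether that bore on their counts was not tested, so their lack of reads does not show absence of those cells either. The part of other cell types in the differences below was not tested. In RNA of a whole culture, fewer cells of a type and less RNA per cell cannot be told apart.

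Most of the TCR signaling genes differed little between the libraries, as did most tested genes, and the ones that stood out were lower in KO. Within 1.5-fold lay 32 of the 42 tested members (76.2%), near the 71.5% of all tested genes. *Malt1*, *Rasgrp1*, *Ptprc* and *Txk* were called lower and no gene was called higher, where a call needed at least a 2-fold difference and an adjusted p under 0.05 in an exact binomial test on reads. That test sets 1 library against the other and not genotype against genotype. All 4 calls were lost in edgeR's exact test when variation between replicates was assumed (coefficient of variation of 0.2 or 0.4), and only that of *Malt1* was kept once the trend with transcript length was taken off. The 4 genes are 9.52% of the 42 tested, and 5.53% of all tested genes were called lower and 2.57% higher. At a limit of 1.5-fold, 9 of the 42 were called lower and 0 higher, 21.4%, with 11.5% of all tested genes called lower and 7.02% higher. With the length trend taken off, 4 members were called lower at 1.5-fold, 9.52%, against 8.1% of all tested genes. The median log2 ratio of the 42 genes was -0.06 and that of all tested genes -0.02. Counting error alone was small enough that the 95% interval of the fold change (exact, Clopper-Pearson) lay below 0 for 16 genes and above 0 for 12, against 2720 and 2559 of the 10881 tested genes. These intervals cover counting error only, because cultures were not repeated. They take each read as independent, so they are too narrow where reads without molecular identifiers are copies of 1 molecule.

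**Figure D1:**
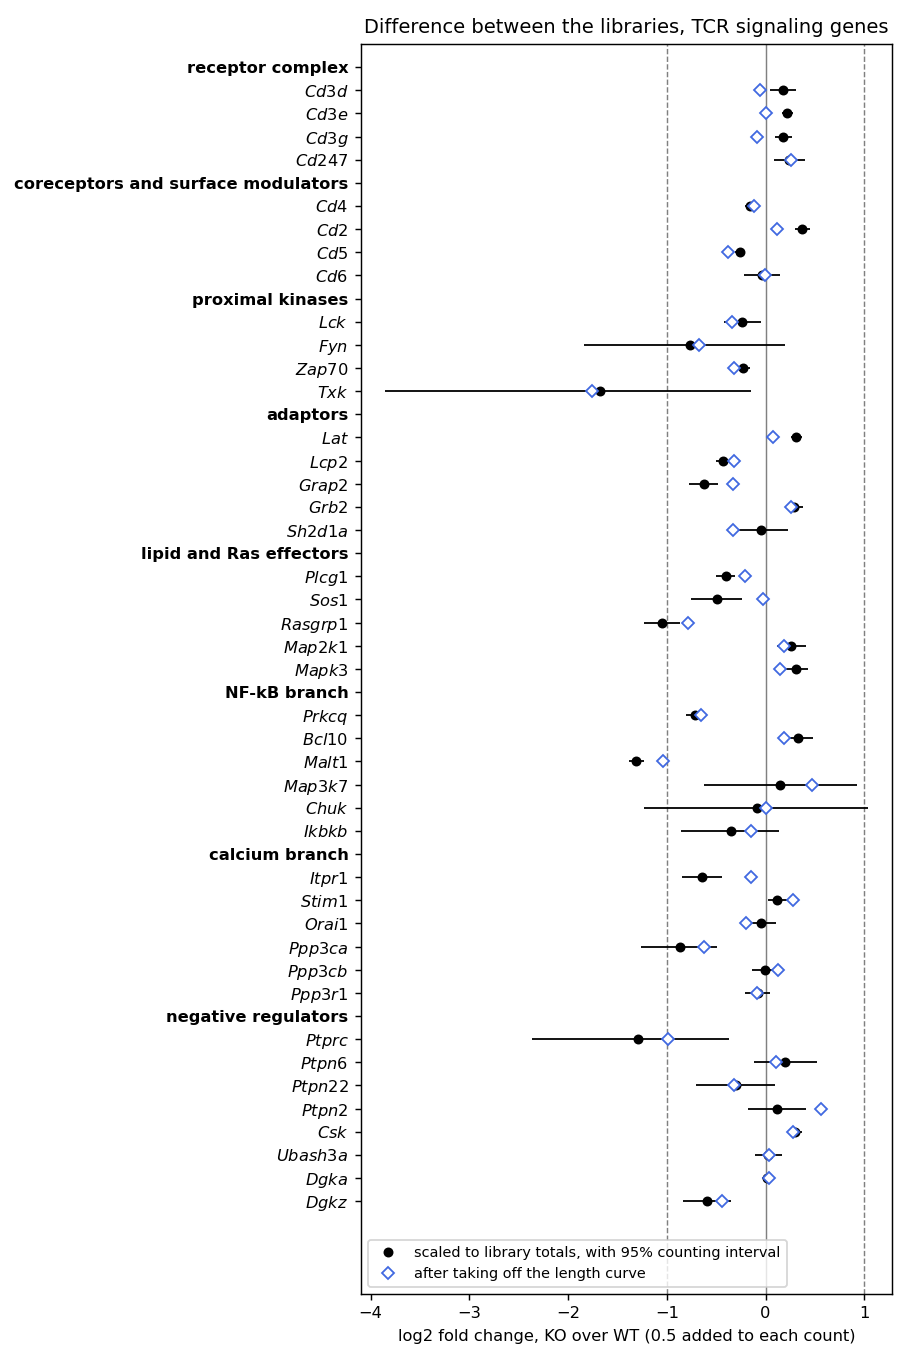
Log2 fold change (KO over WT, horizontal axis) of the 42 tested TCR signaling genes, grouped by role (bold rows). Filled points are scaled to the library totals, bars are exact 95% intervals of counting error, open diamonds are the values after the trend with transcript length was taken off, and dashed lines mark 2-fold. The points left of the lower line are *Txk*, *Malt1*, *Ptprc* and *Rasgrp1*, and none lies right of the upper line.

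The receptor chains themselves were slightly above WT in the KO library. *Cd3e*, which encodes the ε chain, had 4407 reads in WT and 4778 in KO, levels of 455 and 530.2 RPKM (reads scaled to transcript length and library total). *Cd3g* (γ chain) had 2046 and 2155 reads, and *Cd3d* (δ chain) had 904 and 950. *Cd247*, the gene of the ζ chain that carries most of the phosphorylation motifs, had 633 and 696 reads. The log2 ratios of the 4 genes lay together, at 0.22, 0.18, 0.18 and 0.24, none was called, and each interval was above 0, the widest running from 0.08 to 0.40 for *Cd247*. *Cd3g*, *Cd3d* and *Cd3e* are neighbours on chromosome 9 of GRCm38, from 44969572 to 44980431 (minus strand), 44981769 to 44987052 (plus strand) and 44998735 to 45009663 (minus strand). *Cd247* lies on chromosome 1, where 2918 of its 4604 exonic bases overlap exons of *Pou2f1* on the opposite strand, and whether the counting used strand is not given in the sources used here. After the trend with transcript length was taken off, the log2 ratios of *Cd3e*, *Cd3g* and *Cd3d* were 0.00, -0.09 and -0.06, and that of *Cd247* was 0.26.

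Promoter windows (250 bases before to 50 after the start of the curated transcript, RefSeq, GRCm38.p6) are given for the 3 neighbouring CD3 genes, for *Lat*, the member with the highest level, and for *Rasgrp1* and *Prkcq*, which were called lower at 2-fold and at 1.5-fold. The gene spans given in the text also take in predicted RefSeq transcripts, so their ends can differ from these start sites. Capitals mark matches on either strand to the ETS-type words CGGAAG and AGGAAG, the RUNX word TGTGGT, the AP-1 word TGANTCA and the TATA box word TATAAA. The ETS-type words differ in their first letter only, and no matches overlapped in these windows.
*Cd3g* (chr9:44980382-44980681, minus strand): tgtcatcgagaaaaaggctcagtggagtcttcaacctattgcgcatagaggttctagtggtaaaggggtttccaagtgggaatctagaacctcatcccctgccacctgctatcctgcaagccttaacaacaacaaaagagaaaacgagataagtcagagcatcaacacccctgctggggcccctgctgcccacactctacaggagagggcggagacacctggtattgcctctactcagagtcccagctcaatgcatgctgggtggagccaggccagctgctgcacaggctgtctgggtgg
*Cd3d* (chr9:44981536-44981835, plus strand): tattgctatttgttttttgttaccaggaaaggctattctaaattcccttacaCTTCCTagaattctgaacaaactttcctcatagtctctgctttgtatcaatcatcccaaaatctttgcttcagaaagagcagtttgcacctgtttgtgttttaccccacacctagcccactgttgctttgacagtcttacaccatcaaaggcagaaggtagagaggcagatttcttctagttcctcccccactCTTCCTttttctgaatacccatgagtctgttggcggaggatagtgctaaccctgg
*Cd3e* (chr9:45009562-45009861, minus strand): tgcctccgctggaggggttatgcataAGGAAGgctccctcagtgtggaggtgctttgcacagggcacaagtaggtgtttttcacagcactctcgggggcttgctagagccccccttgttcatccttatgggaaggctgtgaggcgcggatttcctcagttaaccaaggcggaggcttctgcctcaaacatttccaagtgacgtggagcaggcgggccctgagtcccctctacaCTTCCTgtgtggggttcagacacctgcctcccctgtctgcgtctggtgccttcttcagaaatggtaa
*Lat* (chr7:126369519-126369818, minus strand): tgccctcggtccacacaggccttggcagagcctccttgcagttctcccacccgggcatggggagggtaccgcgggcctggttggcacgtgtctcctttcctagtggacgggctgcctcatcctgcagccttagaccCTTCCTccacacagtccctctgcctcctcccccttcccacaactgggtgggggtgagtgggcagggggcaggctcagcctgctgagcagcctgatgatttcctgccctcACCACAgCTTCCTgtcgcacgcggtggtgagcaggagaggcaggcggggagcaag
*Rasgrp1* (chr2:117342828-117343127, minus strand): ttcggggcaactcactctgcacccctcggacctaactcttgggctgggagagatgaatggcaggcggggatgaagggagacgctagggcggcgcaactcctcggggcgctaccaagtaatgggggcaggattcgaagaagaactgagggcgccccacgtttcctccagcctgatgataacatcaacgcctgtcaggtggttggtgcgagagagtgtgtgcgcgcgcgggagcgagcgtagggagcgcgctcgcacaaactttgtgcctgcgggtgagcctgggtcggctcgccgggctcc
*Prkcq* (chr2:11172132-11172431, plus strand): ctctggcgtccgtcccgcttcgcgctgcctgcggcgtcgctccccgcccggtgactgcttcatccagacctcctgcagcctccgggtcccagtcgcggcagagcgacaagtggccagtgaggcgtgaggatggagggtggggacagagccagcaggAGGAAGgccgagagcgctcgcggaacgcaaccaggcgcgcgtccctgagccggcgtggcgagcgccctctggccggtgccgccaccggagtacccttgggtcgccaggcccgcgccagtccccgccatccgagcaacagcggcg
The windows of *Cd3d*, *Cd3e* and *Lat* each held 2 matches to AGGAAG, that of *Prkcq* held 1, and those of *Cd3g* and *Rasgrp1* held no match to any of the words. *Lat* also had a RUNX match, beginning 5 bases before its start site, with an ETS-type match beginning at base 3 after it. Windows were found for 35 of the 46 genes, 50 windows in all as some genes have several start sites. AGGAAG was present in 31 of the 50 (62.0%) and in 35.4% of the 32817 windows of all genes. Counted by gene, 24 of the 35 had it. The windows of all genes were limited to full length and counted once per position, a step not applied to the members. The other words were present in 7 windows for CGGAAG (14.0%, against 16.9% of all), in 7 for the RUNX word (14.0%, 16.8%), in 3 for the AP-1 word (6.0%, 7.81%) and in 4 for the TATA box word (8.0%, 13.6%). Such a match shows the letters only, and binding was not measured at these windows here.

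Among the coreceptor and the surface molecules that tune the signal, the values went both ways by small amounts. *Cd4*, the coreceptor that brings LCK to the complex, and whose promoter drives Cre in the KO mice, had 7904 reads in WT and 6598 in KO, levels of 385 and 346 RPKM. Its log2 ratio was -0.16. *Cd5*, an inhibitory receptor whose level is known to follow TCR signal strength, had 7943 and 6186 reads and a log2 ratio of -0.26. *Cd2*, an adhesion and costimulatory receptor, had 2315 and 2790 reads and the highest log2 ratio of all 42 genes, 0.37 (95% interval from 0.29 to 0.45), a ratio of 1.30. *Cd6*, a scavenger-type receptor related to CD5, had 526 and 478 reads and a log2 ratio of -0.03 whose interval held 0. None of the 4 genes reached 1.5-fold. *Cd2* dropped to 0.12 and *Cd5* went to -0.38 once the length trend was taken off.

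Of the kinases nearest the receptor, ZAP70 had by far the most reads. *Zap70* had 2985 reads in WT and 2365 in KO, and *Lck* 555 and 439, and both had a log2 ratio of -0.23 with an interval below 0. The remaining kinases were near the limit of what these libraries show. *Fyn*, a Src-family kinase like LCK, had 26 and 14 reads, and its log2 ratio of -0.77 had an interval from -1.84 to 0.20. *Txk*, a Tec-family kinase, had 15 and 4 reads and was called lower with a log2 ratio of -1.68, but its interval ran from -3.85 to -0.15. The call of *Txk* was lost, with little change in its log2 ratio, when genes with at least 1 read were all tested (-1.68) and with the trends against length (-1.76) or GC content (-1.58) taken off. *Tec* itself had no reads, below the 3 reads (0.451 CPM in WT and 0.485 CPM in KO) taken as the smallest level shown.

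The adaptors split between *Lat* and *Grb2* on one side and *Lcp2* and *Grap2* on the other. *Lat*, the membrane scaffold that ZAP70 phosphorylates, had 5077 reads in WT and 5867 in KO and, at 602 and 747 RPKM, the highest level of the list in both libraries. Its log2 ratio was 0.31. *Grb2*, which carries the Ras activator SOS to LAT, had 1845 and 2092 reads (0.29). *Lcp2*, the gene of SLP-76, had 3585 and 2481 reads and a log2 ratio of -0.43 (interval from -0.50 to -0.35). *Grap2*, the gene of GADS, which links SLP-76 to LAT, had 1036 and 625 reads and was called lower at the 1.5-fold limit, with a log2 ratio of -0.62. The intervals of *Lcp2* and *Grap2* thus lay below those of *Lat* and *Grb2* with no overlap. Their transcripts are longer (3622 and 5475 bases, against 1269 and 2709), and after the length trend was taken off the values were -0.32 and -0.33 for *Lcp2* and *Grap2* and 0.07 and 0.26 for *Lat* and *Grb2*. *Sh2d1a*, the gene of the SLAM-associated adaptor SAP, had 235 and 211 reads and a log2 ratio of -0.05. With the length trend taken off it was at -0.33 (interval from -0.60 to -0.05), near *Lcp2* and *Grap2*.

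*Rasgrp1* was the member of the Ras branch that stood apart. This diacylglycerol-responsive activator of Ras, on chromosome 2 from 117279983 to 117342877 with 17 exons, had 786 reads in WT and 353 in KO, levels of 23.1 and 11.2 RPKM. Its log2 ratio was -1.05 (interval from -1.24 to -0.87), a level 2.07-fold higher in WT, and it was called lower. *Sos1*, the other Ras activator on the list, had 312 and 206 reads and a log2 ratio of -0.49. *Plcg1*, the phospholipase that makes the diacylglycerol, had 2184 and 1535 reads (-0.40). The kinases further down had values on the other side of 0. *Map2k1* (MEK1) had 715 and 798 reads, and *Mapk3* (ERK1) had 1110 and 1282, with log2 ratios of 0.26 and 0.31. *Rasgrp1* has a transcript of 5115 bases, and with the length trend taken off its log2 ratio was -0.78, past 1.5-fold but not 2-fold. *Vav1*, a guanine nucleotide exchange factor that SLP-76 recruits, had no reads.

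The largest difference with many reads behind it was that of *Malt1*, a protease and the scaffold that pairs with BCL10. *Malt1*, on chromosome 18 from 65430939 to 65478888 with 17 exons, had 4871 reads in WT and 1830 in KO, levels of 144 and 58.2 RPKM. Its log2 ratio was -1.31 (interval from -1.39 to -1.23), a level 2.48-fold higher in WT. Its partner *Bcl10* had 710 and 830 reads and a log2 ratio of 0.33 (interval from 0.18 to 0.48). *Prkcq*, the gene of protein kinase C θ, which acts upstream of this complex, had 2624 and 1486 reads and a log2 ratio of -0.72 (interval from -0.81 to -0.62), past the 1.5-fold limit. With the length trend taken off, *Malt1* was still called lower at -1.04 and *Prkcq* was at -0.65, whereas the call of *Malt1* was lost at both assumed coefficients of variation. The kinases below the complex rested on few reads. *Ikbkb* (IKKβ) had 84 and 61 reads, *Map3k7* (TAK1) 30 and 31, and *Chuk* (IKKα) 16 and 14, and their intervals all held 0. *Ikbkg*, the gene of the regulatory subunit NEMO, had no reads.

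In the calcium branch, scaled to library totals, 1 store-release channel and 1 calcineurin subunit on the list were lower in KO. The entry channel and its sensor were near WT. *Itpr1*, an IP3 receptor that releases calcium from the endoplasmic reticulum, had 537 reads in WT and 320 in KO, and *Ppp3ca*, the α isoform of the calcineurin catalytic subunit, had 173 and 88. Their log2 ratios were -0.64 and -0.87, and both were called lower at the 1.5-fold limit. *Stim1*, the calcium sensor of the endoplasmic reticulum, had 1742 and 1759 reads (0.12), and *Orai1*, the pore it opens, had 756 and 683 (-0.04). The β catalytic isoform *Ppp3cb* had 867 and 806 reads, a log2 ratio of 0.00 to 2 decimals, and the regulatory subunit *Ppp3r1* had 1058 and 932 (-0.08). In both libraries the level of *Ppp3cb* (34.0 and 34.0 RPKM) was above that of *Ppp3ca* (5.37 and 2.94 RPKM). *Itpr1* has the longest transcript of the list, 9877 bases, and with the length trend taken off its log2 ratio was -0.14, with an interval from -0.35 to 0.06. *Ppp3ca* was at -0.62 and was still called at 1.5-fold. *Stim1* was then at 0.28 (interval from 0.18 to 0.38) and *Orai1* at -0.20 (interval from -0.35 to -0.04). Both were thus farther from 0 than *Itpr1*, so the contrast with that channel was not kept.

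Among the enzymes and adaptors that limit the signal, only *Ptprc* and *Dgkz*, out of 8 tested, were called lower at the 1.5-fold limit. Of all tested genes 11.5% were called lower at that limit. With the length trend taken off, none of the 8 was called at 1.5-fold, where 8.1% of all tested genes were called lower. *Ptprc* encodes CD45, the phosphatase that sets the activity of LCK in both directions. It had 35 reads in WT and 13 in KO and was called lower with a log2 ratio of -1.29, on an interval from -2.37 to -0.37. With the length trend taken off it was at -0.99, still past 1.5-fold but not called. *Dgkz*, a diacylglycerol kinase that ends the signal to RasGRP1, had 365 and 225 reads (-0.59, and -0.44 with the length trend taken off), of which some may belong to *Gm39876* on the opposite strand, since they share 959 of 4373 exonic bases. Its relative *Dgka* had 7379 and 6927 reads and a log2 ratio of 0.01 with an interval from -0.03 to 0.06. *Csk*, the kinase that inactivates LCK, had 3274 and 3743 reads (0.30). The phosphatases *Ptpn6* (SHP-1, 158 and 169 reads), *Ptpn2* (194 and 195 reads) and *Ptpn22* (126 and 95 reads), the last a partner of CSK, had log2 ratios of 0.20, 0.11 and -0.30, and the interval of each held 0. *Ptpn2*, with a transcript of 8404 bases, went to 0.56 (interval from 0.26 to 0.85) with the length trend taken off and was not called. *Ubash3a*, which encodes a suppressor of TCR signaling, had 900 and 852 reads (0.03).

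Levels per length differed between the members far more than between the libraries. *Lat*, *Cd5*, *Cd3e*, *Cd4* and *Dgka* had the highest levels in WT, from 602 down to 374 RPKM, and *Lat*, *Cd3e*, *Cd5*, *Cd2* and *Dgka* in KO.

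**Figure D2:**
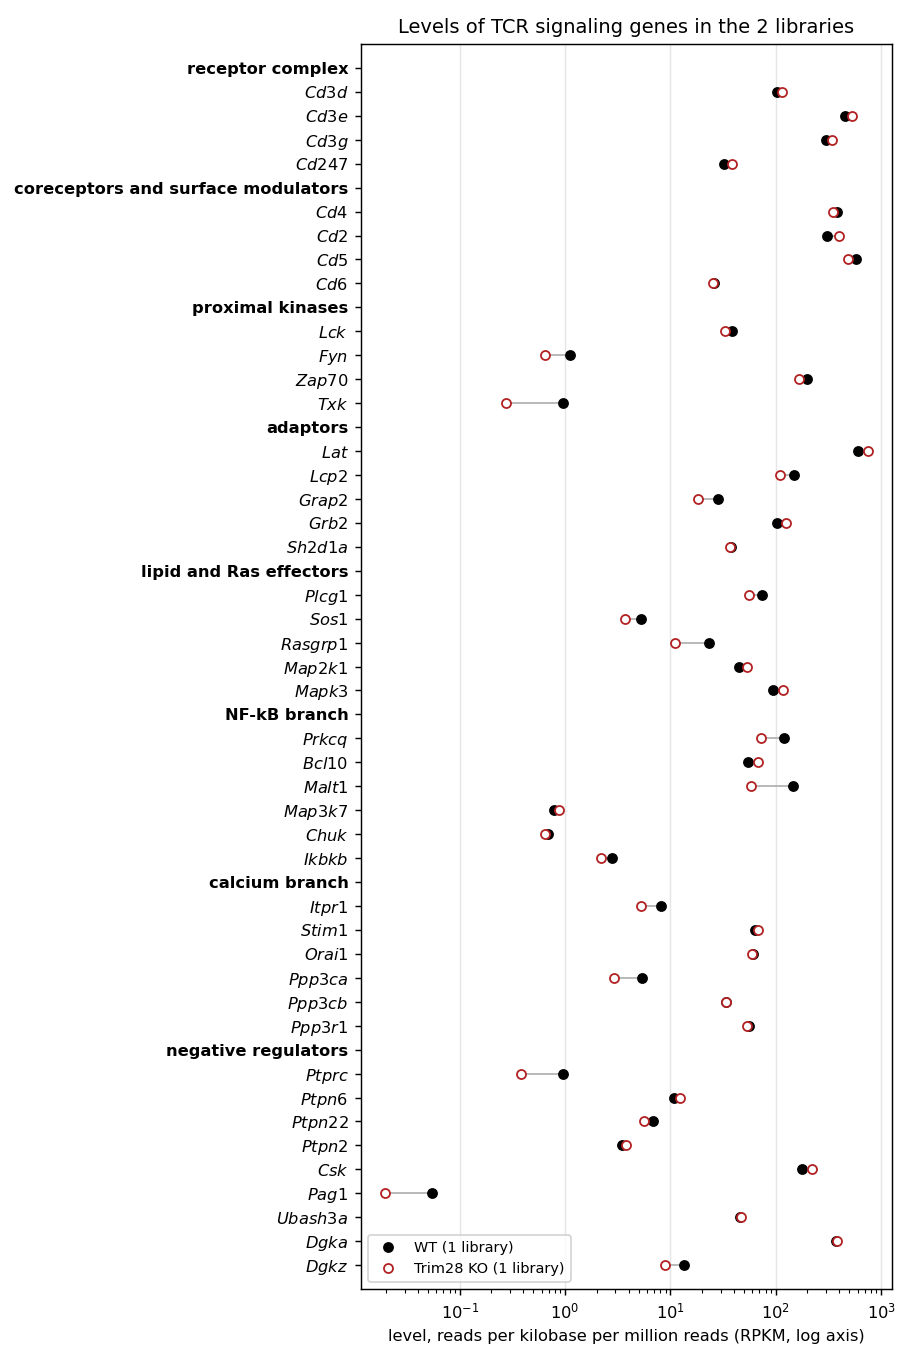
Level (RPKM, horizontal log axis) of the 43 TCR signaling genes with reads, grouped by role, in the WT library (filled) and the KO library (open), 1 library each, with no error bars. The members span levels from 747 RPKM (*Lat*, KO) to below 0.1 RPKM (*Pag1*), and for most genes the points of the libraries nearly touch.

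The fold changes moved with the length of the transcript. Of the 22 tested members with a longest curated RefSeq transcript of 3000 bases or less, 14 had a log2 ratio above 0 and 1 was called lower at 1.5-fold. Of the 20 longer ones, 3 were above 0 and 8 were called lower at 1.5-fold. Their medians were 0.18 and -0.46. The same slope ran through all tested genes, with medians of 0.15 for 5598 genes of 3000 bases or less and -0.22 for 5226 longer genes, and with 5.32% and 18.1% called lower at 1.5-fold. Spearman's rho between log2 ratio and length was -0.59 across the 42 members and -0.40 across 10824 tested genes, a description in which the points share the same libraries. With a loess curve against length taken off, *Malt1* was the only member still called lower at 2-fold, 4.31% of all genes being called lower and 2.33% higher. At 1.5-fold *Malt1*, *Rasgrp1*, *Prkcq* and *Ppp3ca* were called lower and 0 genes higher, with 8.1% and 6.13% of all genes. Whether the length trend comes from RNA quality, library preparation or the cells was not tested.

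**Figure D3:**
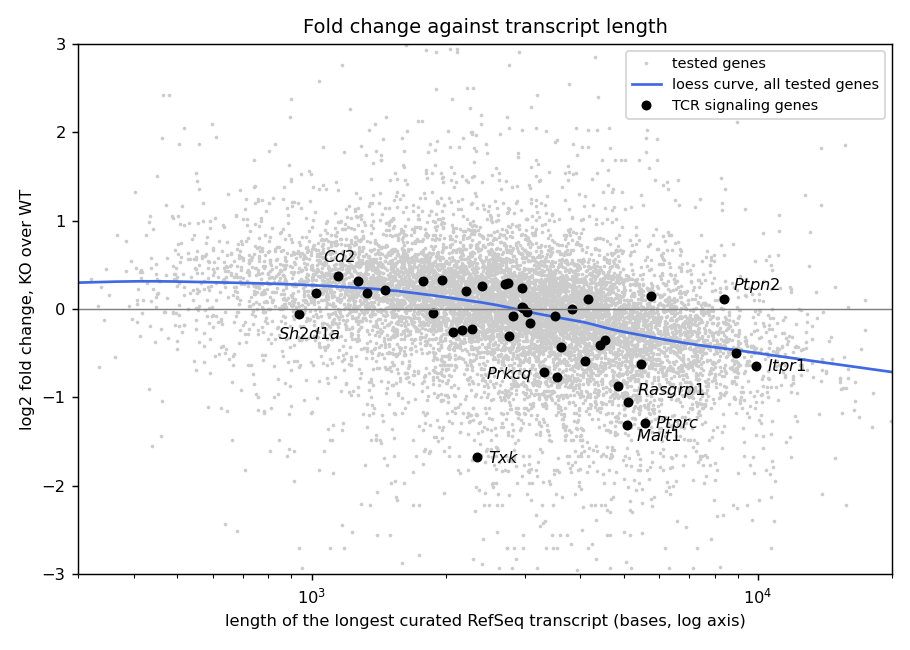
Log2 fold change (KO over WT, vertical axis) against the length of the longest curated RefSeq transcript (bases, horizontal log axis) for all tested genes (grey, 97 genes beyond ±3 not drawn), their loess curve (blue) and the TCR signaling genes (black). The curve falls from above 0 for short transcripts to below 0 for long ones, and *Malt1*, *Rasgrp1*, *Ptprc*, *Prkcq* and *Txk* lie below it, whereas *Itpr1* lies near it.

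The genes with few or no reads had something else in common. All 10 members below 3 RPKM in WT (*Vav1*, *Tec*, *Ikbkg*, *Pag1*, *Chuk*, *Map3k7*, *Ptprc*, *Txk*, *Fyn* and *Ikbkb*) have 2 or more curated RefSeq transcripts. None of the 19 members with a single transcript was below 3 RPKM, and their median WT level was 94.2 RPKM, the lowest being 5.26 RPKM for *Sos1*. Among the 13 members with 2 transcripts 4 were below 3 RPKM, and among the 14 with 3 or more 6 were, although *Dgka* with 5 transcripts was at 374 RPKM. The median WT levels of these groups were 6.85 and 33.1 RPKM, so the medians did not fall steadily with transcript number. The deposited values are numbers of uniquely assigned reads, and how reads that fit several transcripts of a gene were treated is not given in the sources used here. Its part in the low counts of *Ptprc*, *Vav1* and the others was not tested, and where in these genes the reads fell cannot be seen from a count.

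**Figure D4:**
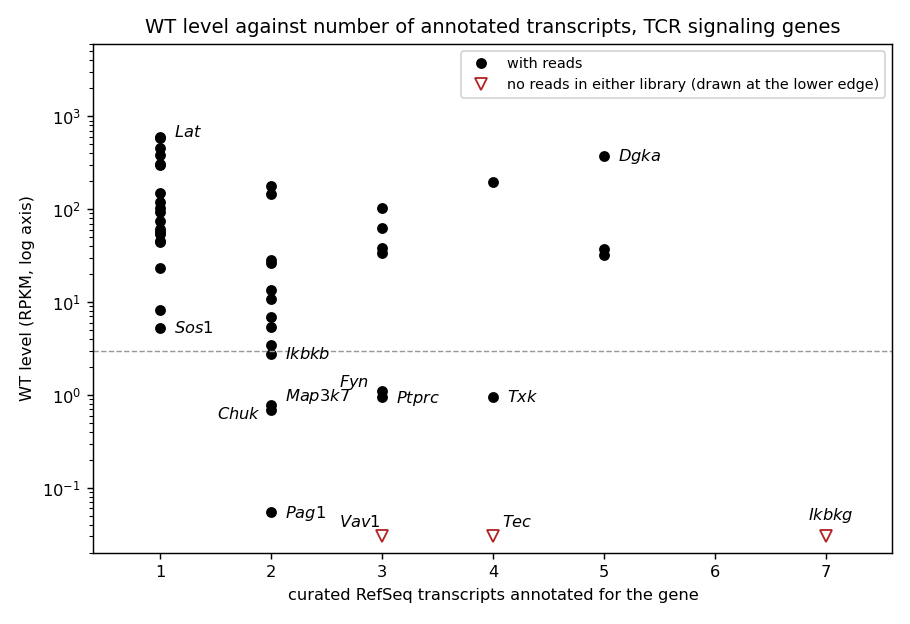
WT level (RPKM, vertical log axis) of each of the 46 TCR signaling genes against its number of curated RefSeq transcripts (horizontal axis). Filled points had reads, open triangles had none in either library and are drawn at the lower edge, and the dashed line marks 3 RPKM, below which no gene with 1 transcript lies.

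Further genes of the pathway, 72 that are not on the list, were taken from the same cascade. Of these, 64 had reads and 58 were tested. *Rasa1* was called lower at 2-fold and 0 genes were called higher, and at 1.5-fold 8 were called lower and 1 higher. The 8 genes are 13.8% of the 58, close to the 11.5% of all tested genes, and the single 2-fold call is a smaller share than the 5.53% of all. The median of their log2 ratios was -0.18, and -0.05 with the length trend taken off. *Rasa1*, a GTPase-activating protein that switches Ras off, had 1544 reads in WT and 598 in KO, a log2 ratio of -1.26, and its 2-fold call was lost with the length trend taken off (-0.996). The others called lower at 1.5-fold were *Slamf6* (474 and 260 reads, -0.76), *Themis* (399 and 229, -0.70), *Itpr3* (2326 and 1318, -0.71), *Sos2* (436 and 266, -0.61), *Pik3r1* (145 and 76, -0.82), *Pik3cd* (70 and 39, -0.73) and *Cd8b1* (52 and 27, -0.83). *Prkca*, a conventional protein kinase C, was the gene called higher, with 317 and 451 reads (0.61). With the length trend taken off, 3 of these genes, *Rasa1*, *Slamf6* and *Cd8b1*, were still called lower at 1.5-fold (5.17%, against 8.1% of all tested genes), and *Cd8b1* and *Prkca* passed 2-fold.

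Relatives of several members were measured as well. *Itpr3* and *Itpr1* had log2 ratios of -0.71 and -0.64, *Sos2* and *Sos1* -0.61 and -0.49, and *Map2k2* and *Map2k1* 0.24 and 0.26. With the length trend taken off, *Itpr3* and *Itpr1* were at -0.25 and -0.14 and *Sos2* and *Sos1* at -0.30 and -0.03, and the intervals of *Itpr1* and *Sos1* then held 0. *Stim2* (845 and 799 reads) was at 0.02, *Orai2* (925 and 1031) at 0.26 and *Orai3* (263 and 207) at -0.24. The calcineurin isoform *Ppp3cc* had 972 and 724 reads (-0.32), and its level (57.6 and 46.1 RPKM) was above those of *Ppp3cb* and *Ppp3ca* in both libraries. Likewise the level of *Itpr3* (38.9 and 23.7 RPKM) was above that of *Itpr1* (8.18 and 5.24 RPKM). *Itpr2* had 2 and 1 reads and was not tested.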

How the data were processed

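Libraries of mRNA from Th17 cells were sequenced, 1 per genotype. According to the methods of the study, reads were mapped to mm10 with SOAP2. The submitters' processing notes name HTSeq without saying for which step. They also name Bowtie, which the study's methods give for ChIP-seq. Which aligner the RNA-seq counts rest on is thus unclear. Per the file headers, the authors deposited counts, the number of unique reads of each gene with no normalization, and the total in each header equals their sum. Genes with 0 reads are not listed and were given 0. The strand setting and annotation of the counting are not given in the sources used here. The ChIP-seq samples were not analysed here.

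Counts were scaled to library totals, with 0.5 added to each count for log2 fold changes. For each of the 10881 genes with a sum of 10 reads or more, the reads were compared by an exact binomial test, two-sided, with Benjamini-Hochberg adjustment over all of them (SciPy 1.17.1, Python 3.11.15). A quasi-likelihood test could not be fitted to 1 library per group. RPKM uses the longest curated RefSeq transcript (GRCm38.p6), as does the loess curve against length (statsmodels 0.14.6, span 0.3, over 99.5% of tested genes). Of 13704 gene names, 12833 matched a RefSeq symbol, 803 an older symbol and 68 none. GC content is that of the longest GENCODE M21 transcript.

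Alternatives used TMM, upper-quartile scaling and the exact test of edgeR 4.0.16 with assumed variation, and size factors of DESeq2 1.42.0 (R 4.3.3). The code was tested on simulated data. Members, gene lists and alternatives were chosen with earlier results of these data known. Named genes are every member, every other pathway gene called at either limit, the relatives of members, *Trim28*, and marker genes of other cells that were called or had no reads. A few of the relatives are not reported here.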

Additional observations from a re-analysis of the deposited data

How the results depend on the processing

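Settings were varied 1 at a time. The number of TCR signaling genes called lower (4) was kept, within 1.5 times, by the 3 other scalings, by 5 added to each count and by both filters on low counts. It was 1 with the length curve, 2 with the GC curve, 0 with edgeR's exact test at assumed coefficients of variation of 0.2 and of 0.4, and 9 at a 1.5-fold limit, where 11.5% of all tested genes were called lower and 7.02% higher. The variation is assumed, not measured. Of all tested genes 131 were then called lower and 65 higher at 0.2 and 9 and 7 at 0.4, against 602 and 280. With 10 reads required in each library, 389 and 184 were called. No setting called a member higher. The median of the members (-0.06) stayed between -0.09 and 0.03, above 0 with the GC curve alone. For the other pathway genes the length curve gave 1 gene called higher and a median of -0.0473.

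Of 419 values of single members under all settings but the 1.5-fold limit, 393 kept direction and call, 14 lost a call and 12 changed sign, none of them called. The sign changes were *Ppp3cb* under TMM (0.0188), DESeq2's size factors (0.0182), upper-quartile scaling (0.00813), the length curve (0.12) and the GC curve (0.15), *Cd3d* (-0.0583), *Cd3g* (-0.0880) and *Chuk* (0.00751) with the length curve, and *Cd6* (0.0495), *Sh2d1a* (0.11), *Chuk* (0.0594) and *Ppp3r1* (0.0622) with the GC curve. The causes were not tested. At this depth genes such as *Txk*, *Ptprc*, *Chuk* and *Map3k7*, with fewer than 100 reads, have intervals too wide to show small differences.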

Other observations

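Across all tested protein-coding genes, the median WT level was lower where more curated RefSeq transcripts are annotated, a steady fall that the members did not show. The median was 15.1 RPKM for 5657 genes with 1 transcript, 6.98 RPKM for 2295 genes with 2 and 4.82 RPKM for 2460 genes with 3 or more. Genes below 3 RPKM made up 20.5%, 35.7% and 41.8% of these groups. The groups of members, unlike these, also hold genes with too few reads for a test. *Cd28*, the costimulatory receptor engaged in these cultures, had 8897 and 5191 reads with a log2 ratio of KO over WT of -0.67 (exact 95% interval from -0.72 to -0.62), and -0.49 with the length curve taken off.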
